A study of Homo sapiens with 9 samples.

Results

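ATP-binding cassette (ABC) transporters are the family described here. Its members were taken as every row of the count table whose gene symbol reads ABC, a subfamily letter from A to G and a number, which gave 46 of 25382 genes. Subfamily A had 12 members, B 9, C 12, D 4, E 1, F 3 and G 5. TAP1, TAP2 and CFTR belong to the same superfamily under other symbols and were not members by this rule.

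The libraries came from 501mel, a human melanoma line grown in culture, and measured total RNA from whole cultures. Cells were transfected by lipofection with a Dicer-substrate small interfering RNA (DsiRNA, a duplex that Dicer trims into an siRNA) and harvested after 24 h. The 3 groups were the control DsiRNA NC1, the TBX3 DsiRNA 13.6 and the TBX3 DsiRNA 13.8, with 3 libraries each that the labels call biological replicates. All groups shared the line, the reagent and the time, no untransfected cells were analysed here, and each duplex is a single sequence in a single line. TBX3 is a T-box transcription factor, and the comparison asked how expression differed between control and knockdown cells.

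ABC proteins bind ATP on paired nucleotide-binding domains and use it to move a substrate across a membrane. Most are exporters of lipids, sterols, drugs, conjugates, haem or fatty acyl chains. The E and F subfamilies lack membrane domains and act on ribosomes. In melanoma the family is known for drug efflux, and ABCB5 marks cells linked to drug resistance and to the melanocyte regulator MITF.

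Levels are given as CPM, reads per 1000000 after scaling each library by its total and an edgeR normalisation factor. Differences are log2 fold changes ± SE from edgeR's quasi-likelihood test over all 9 libraries. A gene was called, and is said to have risen or fallen, at an adjusted p (Benjamini-Hochberg over the 14731 genes tested) under 0.05. Of the 46 members, 33 had enough reads to be tested and 13 did not. Among those tested, 30 passed the read minimum in every library of all 3 groups. ABCA10 and ABCD2 passed it in full only in the 13.8 group, and ABCC11 only in the control and 13.8 groups. ABCA10 and ABCD2 therefore reached the test mainly through the group where they were high. ABCC11 had its lowest mean in control, a group in which it passed in full.

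Library totals ranged from 38105026 to 52272147 reads, and the members took between 0.140% and 0.170% of them. TBX3 itself stood at 85.5 ± 2.73 CPM (SD, n = 3) in control cells, 42.3 ± 3.67 with 13.6 and 35.4 ± 1.41 with 13.8. It fell by 1.02 ± 0.07 with 13.6 (edgeR adjusted p = 1.3e-07) and by 1.27 ± 0.07 with 13.8 (edgeR adjusted p = 1.0e-08). All 7 melanocytic markers (MITF, SOX10, PMEL, MLANA, TYR, DCT and TYRP1) passed the read minimum. Of 4 keratinocyte markers KRT5 had no reads, KRT14 had 1 and KRT1 had 4 over all libraries, while KRT10 stood at 39.2 to 46.2 CPM and made up nearly all of that list's sum. Across genes, log2 levels of libraries of 1 group correlated at 0.991 to 0.995 and those of different groups at 0.964 to 0.978, so every library was closest to its own group.

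Promoter sequence is shown first because TBX3 and MITF bind DNA by short known words. RefSeq promoter windows on GRCh38.p14, from 250 bases before to 50 bases after the start, were at hand for 35 of the 46 members and for 26 of the 33 tested. The words were searched on both strands: the T-box site GGTGTGA and the E-boxes CACGTG and CATGTG. None of the 26 held GGTGTGA, which 4.05% of the 10476 tested genes with a window held. CACGTG stood in 5 of the 26 (ABCB6, ABCF1, ABCC10, ABCB9 and ABCA9), against 12.5% of tested genes. CATGTG stood in 4 (ABCF3, ABCF1, ABCC10 and ABCC2), against 10.5%. A match is a description of these letters only. Below are the E-boxes (capitals) of 4 members whose values follow and, in ABCB9, of a member that was called in no comparison. They are given 5′ to 3′ on the gene's strand.
ABCB6: ccgccctgggCACGTGaccaagccgg
ABCA9: aagaaatcacCACGTGagcagaagat
ABCC10: gcgaatactcCACGTGagaggttata
ABCC2: gctttttagtCACATGtccatccact
ABCB9: ctcggaagcgCACGTGcagcccatag
The ABCB6 window lies at chr2:219219099-219219124 (minus strand), ABCA9 at chr17:69061058-69061083 (minus), ABCC10 at chr6:43427370-43427395 (plus), ABCC2 at chr10:99782633-99782658 (plus) and ABCB9 at chr12:122975326-122975351 (minus), all on GRCh38.p14. CACATG in ABCC2 is CATGTG read on the opposite strand.

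With 13.6, 12 members rose, 8 fell and 13 did not pass, so that 60.6% of tested members were called beside 49.9% of all genes tested. With 13.8, 16 rose, 9 fell and 8 did not pass, which is 75.8% beside 55.5%. The share that rose with 13.8 is to be read against 27.5% of all genes higher, and the share that fell against 27.9%. The corresponding shares of all genes with 13.6 were 24.9% higher and 25% lower. The median change of the tested members was −0.04 with 13.6 and 0.27 with 13.8, beside −0.01 and 0.01 for all genes. Libraries with 13.6 lay wholly above control in 12 members and wholly below in 10, beside 27.9% and 28.1% of all genes. Libraries with 13.8 lay wholly above control in 17 and wholly below in 8, beside 29.5% and 29.6%. Changes of at least 2-fold were few with 13.6 (1 higher, ABCA13, and 2 lower, ABCB5 and ABCA7), where 3.98% of all genes were called that much higher and 4.12% lower. With 13.8 there were 7, all higher (ABCA8, ABCA9, ABCA10, ABCC11, ABCD2, ABCD3 and ABCG4), where 7.49% of all genes were called that much higher and 3.97% lower. Of these 7, ABCA10 and ABCD2 passed the read minimum in full only with 13.8, so their count is no support for a lean to higher. Both comparisons use the same 3 control libraries, so they are not independent of each other. In whole-culture RNA, fewer cells of a type and less RNA per cell cannot be told apart.

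**Figure D1:**
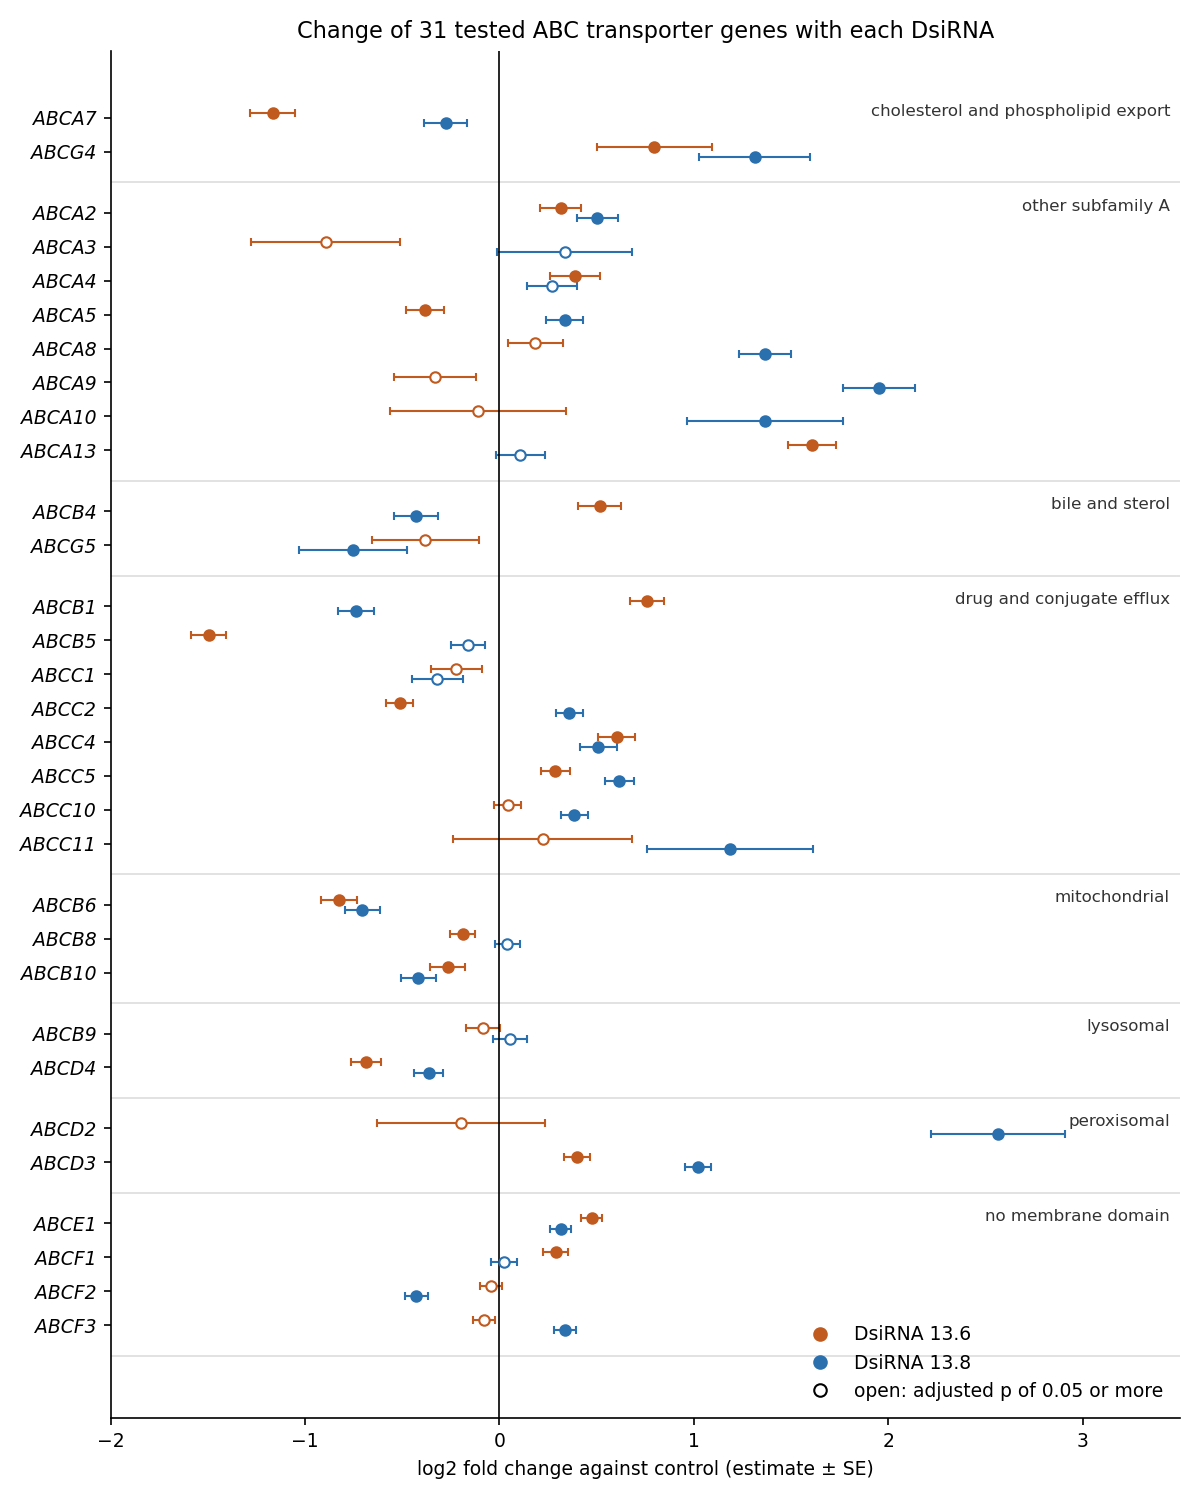
Log2 fold change against control (x axis, estimate ± SE) of 31 tested ABC genes with DsiRNA 13.6 (orange) and 13.8 (blue), ordered by role. Filled points have an adjusted p under 0.05. ABCB5 and ABCA7 lie furthest to the left with 13.6, and ABCD2 and ABCA9 furthest to the right with 13.8.

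The members were not equally abundant. Per kb of exon, averaged over the 9 libraries, the genes without membrane domains led, with ABCF1 at 50.9 CPM per kb, ABCE1 at 43.8 and ABCF2 at 34.7. The mitochondrial ABC subunit ABCB6 followed at 26.9, ABCF3 at 25.4 and the peroxisomal ABCD3 at 21.6. ABCC2 (16.1) and ABCC1 (15.2) were the highest of the drug and conjugate pumps, and ABCB5 stood at 11.2, rank 11 in the family. Exon lengths came from GENCODE v29 on GRCh38, so this order is approximate for counts made on hg19. Of the 33 tested members 22 averaged at least 10 CPM and 5 averaged under 1 CPM (ABCG4, ABCA3, ABCC11, ABCD2 and ABCA10).

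The 13 members that were not tested had 0 to 54 reads in all 9 libraries together. They included the cholesterol exporters ABCA1 (40 reads) and ABCG1 (52), the bile salt pump ABCB11 (31) and the sterol ABC subunit ABCG8 (19). The potassium channel regulators ABCC8 (14) and ABCC9 (54) were among them, as were ABCA12 (47), ABCC6 (20) and ABCC12 (10). ABCG2, a multidrug ABC subunit, had 50 reads, of which 20 lay in 13.6 replicate 1. ABCC3 had 41 reads, with 6, 2 and 1 in control, 2, 1 and 1 with 13.6, and 14, 12 and 2 with 13.8. ABCC13, a pseudogene, had none. No fold is given for these genes.

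**Figure D2:**
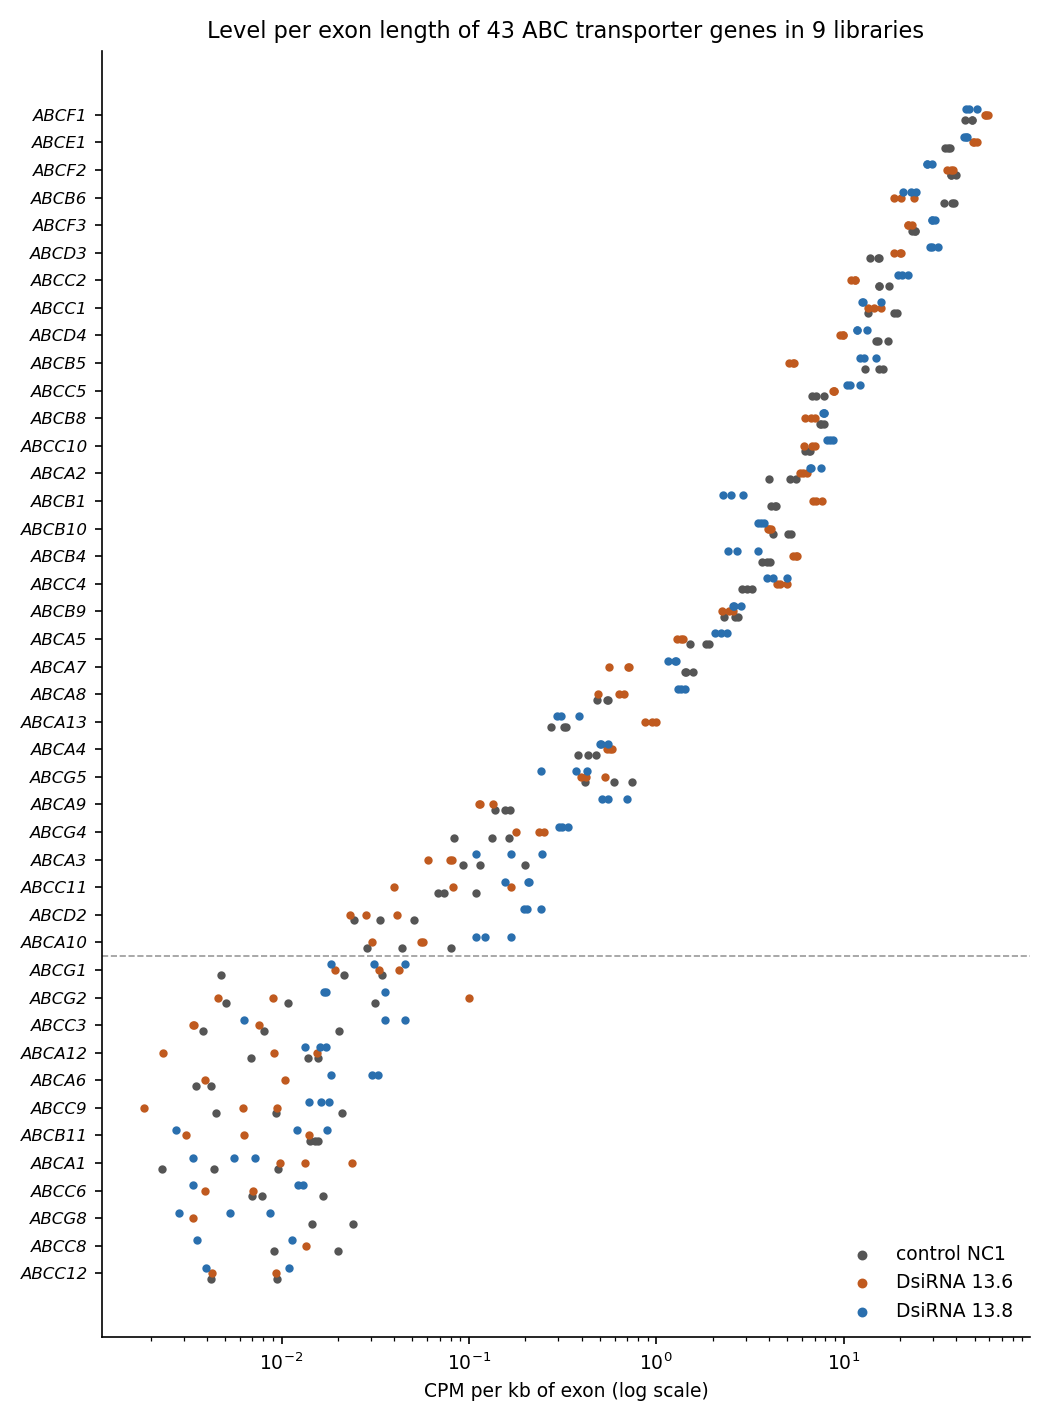
CPM per kb of exon (log x axis) in each of the 9 libraries for 43 ABC genes with at least 1 read, ordered by their mean. Points are libraries, coloured by group, and libraries with no reads are not drawn. Genes under the dashed line were not tested. ABCF1 heads the order at a mean of 50.9, and ABCB5 shows its 3 libraries with 13.6 apart from the other 6.

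Among the drug and conjugate efflux pumps, ABCB1 and ABCC2 were called in opposite directions with the DsiRNAs, and ABCC4 and ABCC5 rose with both. Of the 8 tested of 12, 3 rose (ABCB1, ABCC4 and ABCC5), 2 fell (ABCB5 and ABCC2) and 3 did not pass with 13.6. With 13.8, 5 rose (ABCC2, ABCC4, ABCC5, ABCC10 and ABCC11), 1 fell (ABCB1) and 2 did not pass. The group's median was 0.13 with 13.6 and 0.37 with 13.8. Between the DsiRNAs 5 of the 8 were called, 1 higher and 4 lower with 13.6, near the 61.1% of all genes called. The counts of every role group and partner list stand beside the same shares of all genes, which with 13.6 were 24.9% higher and 25% lower and with 13.8 were 27.5% and 27.9%, around medians of −0.01 and 0.01.

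ABCB5, an efflux pump known from melanoma and from pigment cells, stood at 128, 103 and 123 CPM in control cells. With 13.6 it stood at 42.5, 42.7 and 40.2 CPM, and with 13.8 at 118, 96.6 and 101 CPM. All 3 libraries with 13.6 lay far below the other 6, whereas control and 13.8 overlapped. ABCB5 fell by 1.496 ± 0.09 with 13.6, to 0.354 of its control level (edgeR adjusted p = 3.8e-08). With 13.8 the difference was −0.16 ± 0.09 (95% interval −0.35 to 0.03, edgeR adjusted p = 0.135). Left without control replicate 2, that value was −0.25 (edgeR adjusted p = 0.025), and without 13.8 replicate 1 it was also −0.25 (edgeR adjusted p = 0.026), so both libraries bear on the call. The direct comparison put ABCB5 lower with 13.6 than with 13.8 by −1.33 ± 0.09 (edgeR adjusted p = 5.2e-08).

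Genes tied to ABCB5 in melanoma did not follow one course. MITF averaged 792 ± 115 CPM in control, 768 ± 38.7 with 13.6 and 403 ± 55.6 with 13.8 (SD, n = 3). MITF differed by −0.04 ± 0.11 with 13.6 (edgeR adjusted p = 0.76) and fell by 0.97 ± 0.11 with 13.8 (edgeR adjusted p = 7.1e-06). ABCB5 was low in the group where the MITF level was near control, and MITF was low in the group where the ABCB5 difference did not pass the test. These are RNA levels at 24 h, and a link between these genes was not tested. SOX10, which acts upstream of MITF, rose by 0.32 ± 0.07 with 13.6 and fell by 0.35 ± 0.07 with 13.8. CXCL8, a cytokine linked to ABCB5-positive cells, fell by 1.59 ± 0.22 with 13.6 and rose by 2.36 ± 0.20 with 13.8. NGFR, a marker of dedifferentiated melanoma, rose with both but stayed at 1.57 ± 0.155 CPM at most. NGFR had 21, 27 and 5 reads in control and passed the read minimum in full only with 13.6 and 13.8. KDM5B fell by 0.26 ± 0.09 with 13.8, and PROM1 passed the test with neither.

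ABCB1 (P-glycoprotein, the classical multidrug pump) stood at 20.3, 21.4 and 21.6 CPM in control, 38, 35.1 and 34.0 with 13.6, and 14.3, 11.3 and 12.4 with 13.8. The 3 groups did not overlap, with 13.6 on top and 13.8 at the bottom. ABCB1 rose by 0.76 ± 0.09 with 13.6 (edgeR adjusted p = 1.2e-05) and fell by 0.74 ± 0.09 with 13.8 (edgeR adjusted p = 1.4e-05). The direct difference was 1.49 ± 0.09, or 2.82-fold (edgeR adjusted p = 1.7e-08).

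ABCB4, a phosphatidylcholine floppase of bile canaliculi, is the chromosomal neighbour of ABCB1 with no protein-coding gene between them in the RefSeq order. It stood at 16.4, 17.3 and 18.0 CPM in control, 23.9, 24.7 and 25.2 with 13.6, and 15.6, 11.9 and 10.8 with 13.8. The order of the groups was the one seen for ABCB1, again with no overlap. ABCB4 rose by 0.51 ± 0.11 with 13.6 (edgeR adjusted p = 0.0019) and fell by 0.43 ± 0.11 with 13.8 (edgeR adjusted p = 0.0059), and the direct difference was 0.94 ± 0.11 (edgeR adjusted p = 9.4e-06). ABCB1 and ABCB4 are close paralogs, and how reads matching both were counted is not given in the sources used here.

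ABCC2 exports glutathione and glucuronide conjugates and has CATGTG in its promoter window. It stood at 95, 108 and 95.5 CPM in control, 71.0, 67.5 and 70.7 with 13.6, and 136, 120.2 and 127 with 13.8. Its groups did not overlap, with the reverse order of ABCB1. ABCC2 fell by 0.51 ± 0.07 with 13.6 (edgeR adjusted p = 4.3e-05) and rose by 0.36 ± 0.07 with 13.8 (edgeR adjusted p = 0.0006). The direct difference was −0.87 ± 0.07 (edgeR adjusted p = 2.0e-07).

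ABCC4 and ABCC5, which export cyclic nucleotides among other substrates, rose with both DsiRNAs. ABCC4 stood at 19.2, 20.4 and 18.1 CPM in control, 31.4, 27.7 and 28.6 with 13.6, and 31.3, 24.5 and 26.3 with 13.8. Both knockdown groups lay above control and overlapped each other. ABCC4 rose by 0.60 ± 0.10 with 13.6 and 0.51 ± 0.10 with 13.8 (edgeR adjusted p = 0.00017 and 0.00054), and the difference between the DsiRNAs was 0.09 (95% interval −0.11 to 0.30). ABCC5 stood at 75.5, 83.1 and 71.0 CPM in control, 94.1, 93.7 and 92.4 with 13.6, and 128, 110.2 and 114 with 13.8. Its groups rose in steps without overlap, by 0.29 ± 0.07 with 13.6 and 0.62 ± 0.07 with 13.8 (edgeR adjusted p = 0.0052 and 9.8e-06), a difference of −0.33 ± 0.07 between them (edgeR adjusted p = 0.0015).

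ABCC1 (MRP1, an exporter of glutathione conjugates) passed the test with neither DsiRNA. It stood at 127, 123 and 88.7 CPM in control, 105, 89.2 and 95.9 with 13.6, and 104.3, 83.5 and 83.2 with 13.8. Control replicate 3 lay below the other 2 control libraries, just under the 13.6 libraries and inside the range of 13.8. The differences were −0.22 ± 0.13 with 13.6 (edgeR adjusted p = 0.182) and −0.32 ± 0.13 with 13.8 (edgeR adjusted p = 0.0558). Without control replicate 3 they were −0.37 and −0.47 (edgeR adjusted p = 0.0046 and 0.000644), and without 13.8 replicate 1 the second was −0.44 (edgeR adjusted p = 0.0127). DESeq2 called the 13.8 difference over all libraries, at −0.32 (DESeq2 adjusted p = 0.0285). ABCC10, another drug pump and one with both E-boxes, differed by 0.04 with 13.6 and rose by 0.39 ± 0.07 with 13.8. ABCC11 had 9 to 51 reads per library, and its rise of 1.19 ± 0.43 with 13.8 did not pass when control replicate 1 (1.10), control replicate 3 (1.06), 13.8 replicate 1 (1.12) or 13.8 replicate 3 (1.12) was left out.

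**Figure D3:**
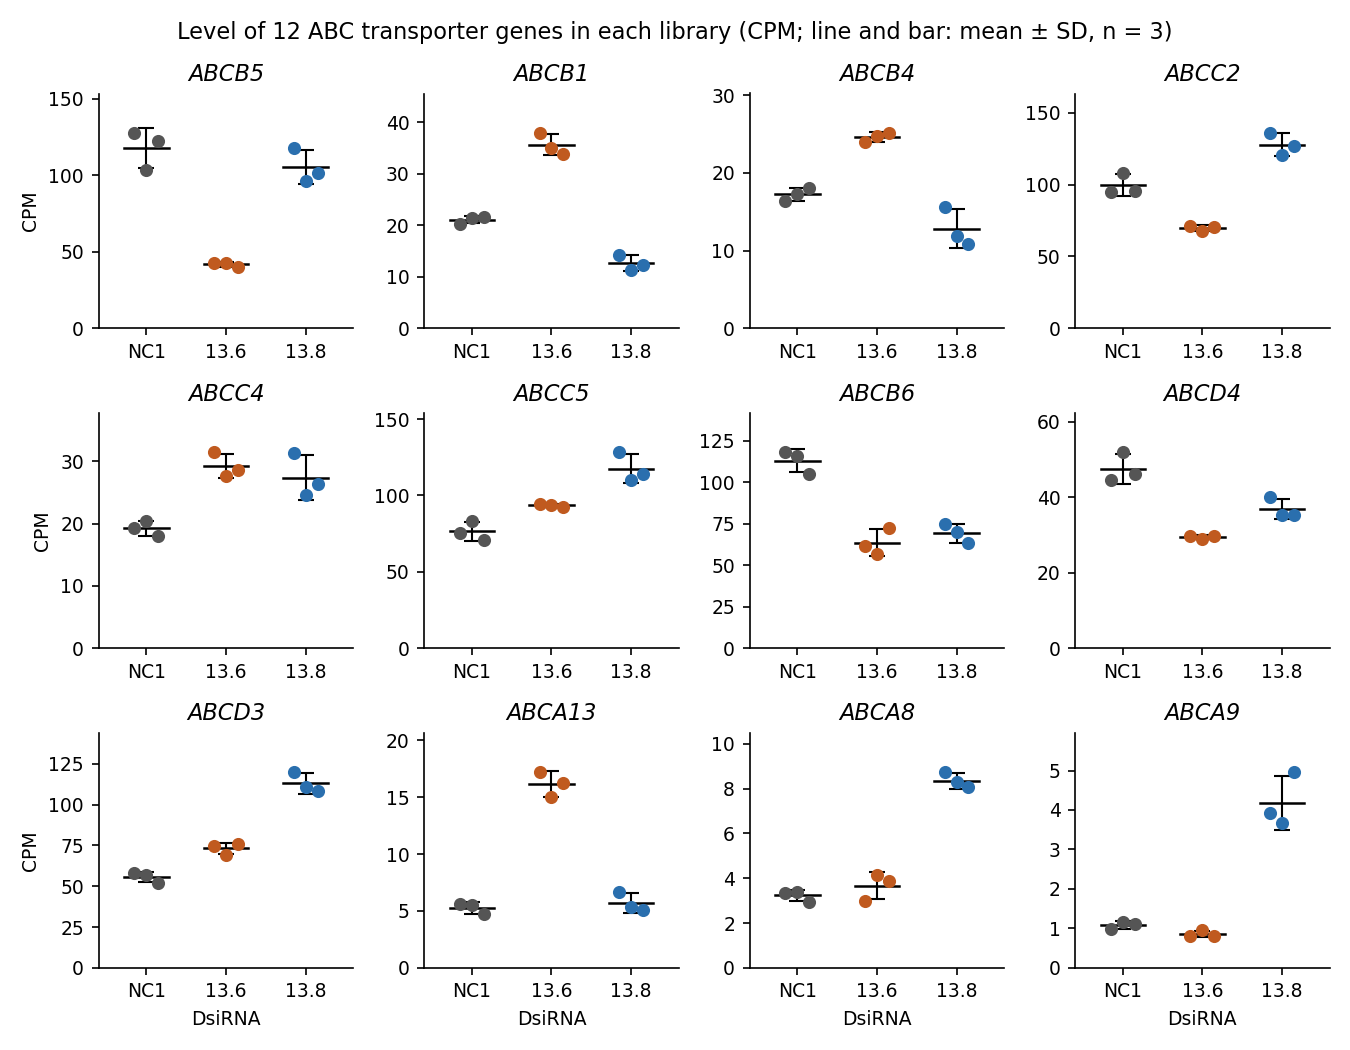
CPM (y axis, starting at 0 in each panel) of 12 ABC genes in the 3 control libraries (NC1) and the 3 libraries with each TBX3 DsiRNA. Points are libraries, lines are means and bars are SD. ABCB5 is low with 13.6, at 40.2 to 42.7 CPM, ABCB1 and ABCC2 show opposite orders of the groups, and ABCB6 is low with both DsiRNAs.

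Genes of drug sensing and conjugation were read beside the pumps. Of 14 listed genes 11 were tested: 1 rose and 5 fell with 13.6 (all genes 24.9% and 25%), and 4 rose and 3 fell with 13.8 (all genes 27.5% and 27.9%). Their median was −0.09 with 13.6 and 0.19 with 13.8. GSTK1, a glutathione transferase, fell by 0.89 ± 0.09 with 13.6 and rose by 0.87 ± 0.09 with 13.8. GCLC, the catalytic subunit that makes the glutathione precursor, rose by 0.48 ± 0.08 with 13.6 and 1.19 ± 0.08 with 13.8. GCLM, on the same list, fell by 0.69 ± 0.08 with 13.6 and 0.48 ± 0.08 with 13.8. GSS fell by 0.52 ± 0.07 with 13.6 and rose by 0.22 ± 0.07 with 13.8, so the glutathione genes did not move one way. AHR, a xenobiotic receptor, rose by 0.77 ± 0.07 with 13.8, where GSTO1 fell by 0.73 ± 0.08.

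Among ABC subunits of mitochondria, ABCB6, ABCB8 and ABCB10 fell with 13.6. With 13.8, ABCB6 and ABCB10 fell and ABCB8 did not pass. ABCB6, a porphyrin transporter also reported in lysosomes, has CACGTG in its promoter window and stood at 118, 116 and 105 CPM in control, 61.7, 56.5 and 72.6 with 13.6, and 74.6, 70.0 and 63.1 with 13.8. Every knockdown library lay below every control library, and the knockdown groups overlapped each other. ABCB6 fell by 0.83 ± 0.09 with 13.6 (edgeR adjusted p = 8.0e-06) and by 0.71 ± 0.09 with 13.8 (edgeR adjusted p = 2.4e-05). The difference between the DsiRNAs was −0.12 ± 0.09 (95% interval −0.32 to 0.08), and −0.23 without 13.6 replicate 3 (edgeR adjusted p = 0.0463).

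ABCB10 and ABCB8 had smaller changes than ABCB6. ABCB10, a transporter of the inner membrane linked to haem synthesis, fell by 0.27 ± 0.09 with 13.6 and 0.42 ± 0.09 with 13.8. Leaving out control replicate 1 (−0.24) or 2 (−0.21), or 13.6 replicate 1 (−0.25) or 2 (−0.26), ended the 13.6 call. ABCB8 fell by 0.19 ± 0.07 with 13.6, a call that ended when control replicate 2 (−0.17), 13.6 replicate 1 (−0.14) or 13.6 replicate 3 (−0.20) was left out.

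Haem and iron-sulfur genes, the partners of this group, moved in many directions. Of 14 tested, 2 rose and 8 fell with 13.6, beside 24.9% and 25% of all genes, and 4 rose and 7 fell with 13.8, beside 27.5% and 27.9%. The list's median was −0.26 with each DsiRNA. In the direct comparison all 14 passed the test, 5 higher and 9 lower with 13.6, beside 61.1% of all genes. CPOX, a late enzyme of haem synthesis, rose by 0.33 ± 0.07 with 13.6 and fell by 0.94 ± 0.07 with 13.8. PPOX, the next enzyme, fell by 1.06 ± 0.10 with 13.6 and 0.33 ± 0.10 with 13.8. FECH, which inserts the iron, fell by 0.64 ± 0.10 with 13.6 and rose by 0.30 ± 0.10 with 13.8.

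Lysosomal members were ABCA2, ABCA3, ABCB9 and ABCD4, of which 1 rose (ABCA2) and 1 fell (ABCD4) with each DsiRNA. Of all genes, 24.9% rose and 25% fell with 13.6, and 27.5% rose and 27.9% fell with 13.8. ABCD4, which passes cobalamin out of the lysosome, stood at 44.5, 51.8 and 46.1 CPM in control, 29.8, 28.8 and 29.8 with 13.6, and 40.0, 35.3 and 35.3 with 13.8. No group overlapped another. ABCD4 fell by 0.69 ± 0.08 with 13.6 (edgeR adjusted p = 8.2e-06) and 0.36 ± 0.08 with 13.8 (edgeR adjusted p = 0.0012), and the difference between the DsiRNAs was −0.32 ± 0.08 (edgeR adjusted p = 0.0026). Its partner in the lysosomal membrane, LMBRD1, went the other way, from 21.2 ± 1.98 CPM to 74.1 ± 0.815 with 13.6 and 72.0 ± 1.02 with 13.8 (SD, n = 3), a rise of 1.81 ± 0.07 and 1.77 ± 0.07. The cobalamin uptake receptor CD320 rose by 0.50 ± 0.12 and 0.48 ± 0.12. Of the 6 cobalamin genes tested, 2 rose and 0 fell with 13.6 (median 0.07), and 2 rose and 1 fell (MMADHC, by 0.35 ± 0.07) with 13.8 (median 0.35). ABCB9, a lysosomal peptide transporter, passed no test, at −0.08 and 0.06.

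Among peroxisomal ABC subunits, ABCD3 rose with both DsiRNAs and ABCD2 with 13.8. ABCD3, which imports branched-chain and bile acid precursors, stood at 57.9, 57.0 and 51.8 CPM in control, 74.9, 69.4 and 75.6 with 13.6, and 119.9, 111 and 108 with 13.8. The 3 groups rose in steps without overlap. ABCD3 rose by 0.40 ± 0.07 with 13.6 (edgeR adjusted p = 0.00029) and 1.02 ± 0.07 with 13.8 (edgeR adjusted p = 4.4e-08), and the difference between the DsiRNAs was −0.62 ± 0.07 (edgeR adjusted p = 3.4e-06). ABCD2, a peroxisomal fatty acid transporter, had 7, 8 and 13 reads in control, 6, 12 and 8 with 13.6, and 72, 65 and 63 with 13.8. Its 13.8 libraries stood clear of the other 6, and it rose by 2.56 ± 0.34 with 13.8 (edgeR adjusted p = 3.2e-05) from a level under 1 CPM. Against 13.6 the difference was −2.76 ± 0.35 (edgeR adjusted p = 1.5e-05). ABCD2 passed the read minimum in full only with 13.8, so both values come from a gene tested mainly through the group where it was high.

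Of 10 partner genes of peroxisomal import and beta-oxidation, 1 rose and 3 fell with 13.6 (all genes 24.9% and 25%), and 5 rose and 1 fell with 13.8 (all genes 27.5% and 27.9%). Their median was −0.09 and 0.06. PEX3, which places membrane proteins in peroxisomes, fell by 0.46 ± 0.07 and 0.43 ± 0.07. EHHADH, the bifunctional beta-oxidation enzyme, fell by 0.31 ± 0.11 with 13.6 and rose by 0.70 ± 0.11 with 13.8, where HSD17B4 rose by 0.36 ± 0.06.

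Outside the cholesterol exporters, 8 of the 10 lipid and retinoid transporters of subfamily A were tested. With 13.6, 3 rose (ABCA2, ABCA4 and ABCA13) and 1 fell (ABCA5), beside 24.9% and 25% of all genes. With 13.8, 5 rose (ABCA2, ABCA5, ABCA8, ABCA9 and ABCA10) and 0 fell, beside 27.5% and 27.9%. Of these, ABCA10 passed the read minimum in full only with 13.8, so it is no support for a lean to higher. ABCA13, the longest member, stood at 5.65, 5.54 and 4.69 CPM in control, 17.2, 15 and 16.3 with 13.6, and 6.69, 5.35 and 5.08 with 13.8. The 13.6 libraries lay far above the other 6, which overlapped. ABCA13 rose by 1.61 ± 0.12 with 13.6, or 3.05-fold (edgeR adjusted p = 2.5e-07). With 13.8 the difference was 0.11 ± 0.13 (edgeR adjusted p = 0.50), and the direct difference was 1.502 ± 0.12 (edgeR adjusted p = 2.2e-07).

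ABCA8, ABCA9, ABCA6, ABCA10 and ABCA5 stand next to each other in that order, with no protein-coding gene between them in RefSeq. ABCA8, linked to cholesterol and lipid export, stood at 3.35, 3.41 and 2.96 CPM in control, 2.98, 4.14 and 3.89 with 13.6, and 8.74, 8.27 and 8.05 with 13.8. ABCA9, with CACGTG in its window, stood at 0.974, 1.17 and 1.10 CPM in control, 0.800, 0.949 and 0.814 with 13.6, and 3.93, 3.66 and 4.96 with 13.8. In both genes the 13.8 libraries lay above the other 6. ABCA8 rose by 1.37 ± 0.14 (edgeR adjusted p = 1.9e-06) and ABCA9 by 1.95 ± 0.18 with 13.8, or 3.87-fold (edgeR adjusted p = 1.3e-06). Their differences with 13.6 were 0.18 ± 0.14 and −0.33 ± 0.21 (edgeR adjusted p = 0.30 and 0.21). Between the DsiRNAs they differed by −1.18 ± 0.13 and −2.29 ± 0.19 (edgeR adjusted p = 5.2e-06 and 2.9e-07).

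The rest of that gene row had lower counts or smaller changes. ABCA6 had 1, 1 and 0 reads in control, 1, 3 and 0 with 13.6, and 9, 6 and 10 with 13.8, and was not tested. ABCA10 had 7 to 21 reads in the control libraries, 9 to 16 with 13.6 and 34 to 56 with 13.8. It rose by 1.36 ± 0.40 with 13.8, a call lost without 13.8 replicate 2 (1.16, edgeR adjusted p = 0.0561). ABCA10 passed the read minimum in full only with 13.8. ABCA5, at the end of the row, fell by 0.38 ± 0.10 with 13.6 and rose by 0.34 ± 0.10 with 13.8, a direct difference of −0.72 ± 0.10 (edgeR adjusted p = 2.8e-05). ABCA10 and ABCA5 share exonic sequence on the same strand, and ABCA9 overlaps an antisense gene, so their counts could be split or mixed by the counting.

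Fibroblast marker RNA was highest with 13.8, the group in which ABCA8 and ABCA9 rose. The 7 fibroblast markers, of which 5 were tested, summed to 4.99 to 6.50 CPM in control, 6.27 to 8.0 with 13.6 and 19.0 to 21.6 with 13.8, and none of the 7 was at 0 over a whole group. With 13.8 COL1A1, COL1A2, DCN, LUM and THY1 rose, and with 13.6 only THY1 of these 5 did. COL1A2 and DCN passed the read minimum in full only with 13.8, and THY1 only with 13.6 and 13.8. The calls of COL1A2, DCN and THY1 are therefore no support for a rise of the list. The part of these cells or genes in the ABCA changes was not tested.

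ABCA2, a lipid transporter of late endosomes, stood at 46.6, 43.1 and 33.4 CPM in control, 53.3, 48.7 and 51.1 with 13.6, and 63.3, 55.8 and 55.3 with 13.8. Control replicate 3 was the lowest library, and neither knockdown group overlapped control. ABCA2 rose by 0.31 ± 0.10 with 13.6 (edgeR adjusted p = 0.024) and 0.50 ± 0.10 with 13.8 (edgeR adjusted p = 0.0012). The 13.6 value was 0.19 without control replicate 3, 0.28 without 13.6 replicate 1 and 0.31 without 13.6 replicate 3, each past the threshold no longer. ABCA4, the retinoid transporter of photoreceptors, rose by 0.39 ± 0.13 with 13.6, a call that ended when control replicate 2 (0.31), 13.6 replicate 1 (0.39) or 13.6 replicate 2 (0.37) was left out. With 13.8 the ABCA4 libraries also lay above control, at a difference of 0.27 ± 0.13 (edgeR adjusted p = 0.091). Between the DsiRNAs ABCA4 differed by 0.12 ± 0.13 (edgeR adjusted p = 0.43). ABCA3, the surfactant lipid transporter, averaged under 1 CPM and passed against control with neither DsiRNA. Its 13.6 libraries lay wholly below control, at a difference of −0.89 ± 0.38 (edgeR adjusted p = 0.069). Without control replicate 3 that difference was −1.10 (edgeR adjusted p = 0.0305). ABCA3 was lower with 13.6 than with 13.8 by −1.23 ± 0.37 (edgeR adjusted p = 0.011), and by −0.90 without 13.8 replicate 1 (edgeR adjusted p = 0.0613).

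Of the 4 cholesterol and phospholipid exporters ABCA7 and ABCG4 were tested. ABCA7, a phospholipid floppase, stood at 10.9, 9.93 and 10.0 CPM in control, 4.92, 3.88 and 4.97 with 13.6, and 8.82, 7.99 and 8.70 with 13.8. The 3 groups did not overlap, and the 13.6 libraries were the lowest. ABCA7 fell by 1.17 ± 0.12 with 13.6 (edgeR adjusted p = 2.7e-06) and by 0.28 ± 0.11 with 13.8 (edgeR adjusted p = 0.046). The 13.8 call was lost in 8 of the 9 fits that left out 1 library, all but the one without 13.6 replicate 2, with values from −0.30 to −0.23. Between the DsiRNAs ABCA7 differed by −0.89 ± 0.12 (edgeR adjusted p = 1.9e-05). ABCG4, a sterol ABC subunit, rose from 0.520 ± 0.166 CPM to 0.910 ± 0.163 with 13.6 and 1.30 ± 0.0706 with 13.8 (SD, n = 3), by 0.80 ± 0.30 and 1.31 ± 0.28. Leaving out control replicate 2 or 3, 13.6 replicate 1 or 2, or 13.8 replicate 2 or 3 ended the 13.6 call, at values from 0.57 to 0.82.

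Of 12 regulators and companions of cholesterol export, 4 rose and 2 fell with 13.6 (all genes 24.9% and 25%), and 3 rose and 1 fell with 13.8 (all genes 27.5% and 27.9%), with medians of 0.10 and 0.02. NR1H3 (LXR-alpha, a sterol-sensing receptor) fell by 1.10 ± 0.12 with 13.6 and stood at −0.23 ± 0.11 with 13.8 (edgeR adjusted p = 0.10). SREBF2, the driver of cholesterol synthesis, rose by 0.69 ± 0.08 with 13.6. APOE, the lipid acceptor, fell by 0.41 ± 0.15 with 13.6 and rose by 0.82 ± 0.15 with 13.8. SMPDL3A, an LXR target, rose by 1.24 ± 0.08 and 0.69 ± 0.08, and RXRB, a receptor partner, by 0.29 ± 0.06 and 0.57 ± 0.06. NPC1, which releases cholesterol from lysosomes, fell by 0.52 ± 0.08 with 13.8. ABCG5, the sterol ABC subunit that pairs with ABCG8, stood at 2.06, 1.14 and 1.64 CPM in control, 1.09, 1.47 and 1.17 with 13.6, and 0.669, 1.02 and 1.18 with 13.8. Control and 13.8 overlapped in single libraries, and its fall of 0.76 ± 0.28 with 13.8 (edgeR adjusted p = 0.034) did not pass when control replicate 1 (−0.54), control replicate 3 (−0.75), 13.8 replicate 1 (−0.56) or 13.8 replicate 2 (−0.81) was left out.

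Of the 4 members without a membrane domain, 2 rose and 0 fell with 13.6 (all genes 24.9% and 25%). With 13.8, 2 rose and 1 fell (all genes 27.5% and 27.9%). ABCE1, which splits ribosomes after termination, stood at 146, 137 and 142 CPM in control, 203, 191 and 196 with 13.6, and 179, 177 and 173 with 13.8. The groups did not overlap. ABCE1 rose by 0.47 ± 0.05 with 13.6 (edgeR adjusted p = 9.4e-06) and 0.31 ± 0.05 with 13.8 (edgeR adjusted p = 0.00025). The difference between the DsiRNAs was 0.16 ± 0.05 (edgeR adjusted p = 0.020), a call lost without 13.6 replicate 1 (0.14) or 3 (0.16) or 13.8 replicate 3 (0.15). ABCE1 overlaps ANAPC10 on the opposite strand, as ABCC10 does DLK2 and ABCB9 does ARL6IP4 and OGFOD2, and ABCB6, ABCF2 and ABCC11 share exonic sequence with a clone-named gene on their own strand. Counts of these members are uncertain to that extent, since the strand setting of the counting is not given in the sources used here.

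ABCF1, which acts in translation initiation, stood at 169, 169 and 154 CPM in control, 199, 198 and 204 with 13.6, and 180.3, 157 and 163 with 13.8. The 13.6 libraries lay above the other 6, which overlapped. ABCF1 rose by 0.29 ± 0.06 with 13.6 (edgeR adjusted p = 0.0022) and differed by 0.02 ± 0.06 with 13.8 (edgeR adjusted p = 0.78), and the direct difference was 0.27 ± 0.06 (edgeR adjusted p = 0.0028). ABCF2, a relative of ABCF1, stood at 141, 133 and 133 CPM in control, 136, 133 and 126 with 13.6, and 105, 98.6 and 99.1 with 13.8, so that its 13.8 libraries were the lowest. ABCF2 fell by 0.43 ± 0.06 with 13.8 (edgeR adjusted p = 3.3e-05) and differed by −0.04 ± 0.06 with 13.6, and the direct difference was 0.38 ± 0.06 (edgeR adjusted p = 7.0e-05). ABCF3 went the opposite way, rising by 0.34 ± 0.06 with 13.8 (edgeR adjusted p = 0.00019) and standing at −0.08 with 13.6. Of 9 ribosome recycling and initiation partners, 3 rose and 1 fell (ETF1, the release factor, by 0.39 ± 0.05) with 13.6 (median 0.01), and 2 rose and 5 fell with 13.8 (median −0.15), beside the same shares of all genes. EIF2S3, a subunit of initiation factor eIF2, rose by 0.35 ± 0.06 and 0.52 ± 0.06. HBS1L, a ribosome rescue factor, rose by 0.39 ± 0.06 with 13.6 and fell by 0.28 ± 0.07 with 13.8.

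The peptide transporters TAP1 and TAP2, which load class I molecules and belong to subfamily B by structure, both rose. TAP1 rose from 18.6 ± 1.06 CPM to 31.8 ± 0.386 with 13.6 and 31.5 ± 0.799 with 13.8 (SD, n = 3), by 0.77 ± 0.07 and 0.76 ± 0.07. TAP2 rose from 43.6 ± 2.37 CPM to 96.8 ± 4.70 and 68.5 ± 0.680, by 1.15 ± 0.06 and 0.65 ± 0.06. CFTR had 34 reads in all libraries, and the channel pores KCNJ8 and KCNJ11 had 2 and 55, so none of these 3 was tested.

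**Figure D4:**
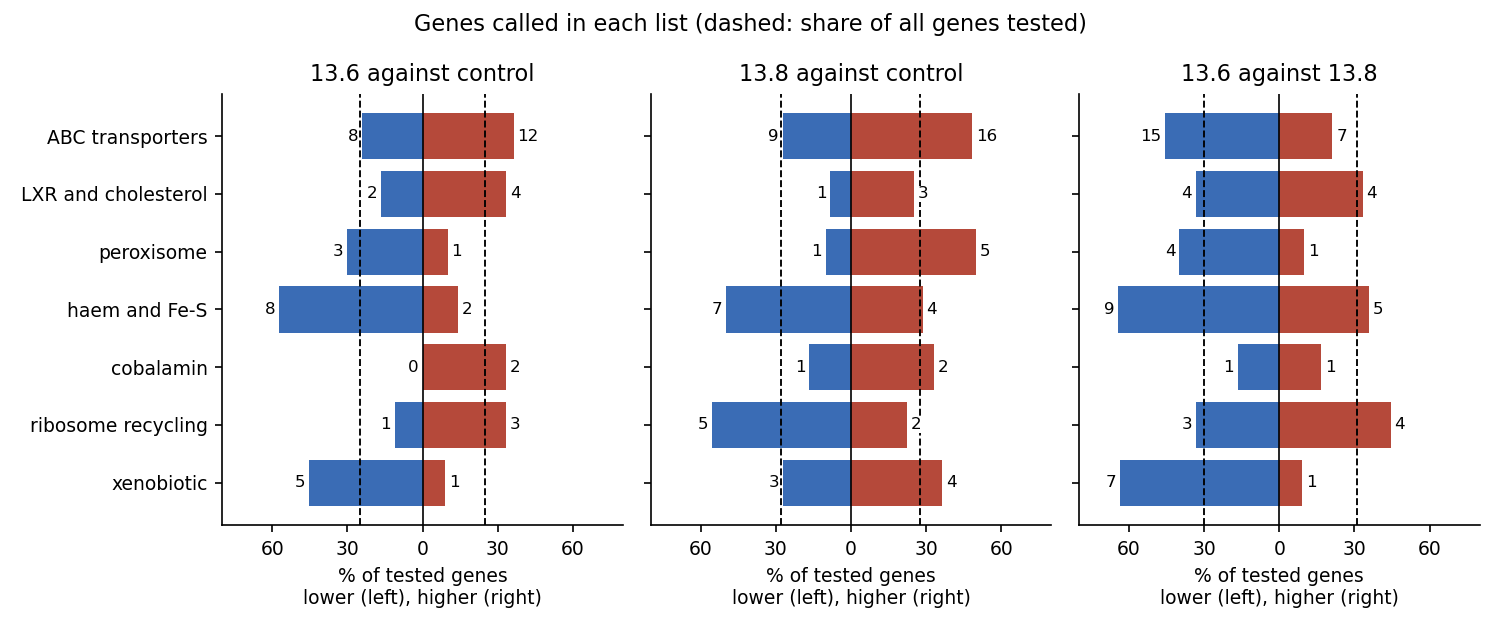
Share of tested genes called lower (blue, to the left) and higher (red, to the right) in the ABC family and 6 partner lists, in 3 comparisons, with the number of genes at each bar. Dashed lines give the share among all 14731 genes tested. Of the ABC genes, 16 of 33 lie to the right with 13.8 and 15 of 33 to the left between the DsiRNAs.

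The mean of both DsiRNAs against control called 15 members higher and 6 lower, 63.6% beside 50.2% of all genes (23.3% higher and 26.9% lower). The median was 0.13 beside −0.01. At least 2-fold, 2 members were higher (ABCD2 and ABCG4) and 0 lower, where 4.11% of all genes were called that much higher and 1.77% lower. ABCD2 passed the read minimum in full only with 13.8, so it is no support for a lean to higher. ABCB6 (−0.77 ± 0.08), ABCD4 (−0.53 ± 0.07), ABCB10 (−0.34 ± 0.08) and ABCA7 (−0.72 ± 0.10) were among the lower members, and ABCD3 (0.71 ± 0.06), ABCC4 (0.56 ± 0.08), ABCC5 (0.45 ± 0.06), ABCA2 (0.41 ± 0.09), ABCE1 (0.39 ± 0.05) and ABCG4 (1.05 ± 0.26) among the higher. ABCB1 averaged 0.01 ± 0.08, from 0.76 with 13.6 and −0.74 with 13.8. ABCC2 averaged −0.08 ± 0.06, from −0.51 and 0.36. ABCB5 averaged −0.83 ± 0.08, from −1.496 and −0.16, so an average over the DsiRNAs stands for neither in these 3 genes. ABCF1 (0.16 ± 0.06) and ABCF3 (0.13 ± 0.05) were called here at small changes, and ABCF3 was lost in 8 of the 9 fits that left out 1 library, all but the one without 13.8 replicate 1, with values from 0.11 to 0.14. Leaving out control replicate 3 (0.11), any of the 13.6 replicates (0.15 to 0.16) or 13.8 replicate 1 (0.13) ended the call of ABCF1. ABCA4 (0.33 ± 0.11) did not pass when control replicate 2 (0.25), control replicate 3 (0.33) or 13.6 replicate 2 (0.32) was left out. Without control replicate 1 the call of ABCD2 (0.95, from 1.18 ± 0.35) was lost.

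The direct comparison of 13.6 with 13.8 uses no control library. It called 7 members higher with 13.6 and 15 lower, 66.7% of those tested beside 61.1% of all genes (30.9% higher and 30.2% lower), with a median of −0.23 beside −0.02. The libraries of the DsiRNAs did not overlap in 8 members higher and 17 lower with 13.6, beside 34.8% and 34% of all genes. ABCD2, ABCA9, ABCA10, ABCB5, ABCA3 and ABCA8 were at least 2-fold lower with 13.6, and ABCA13 and ABCB1 at least 2-fold higher. All genes leaned the same way at that size, with 9.04% called lower and 4.96% higher with 13.6. ABCA10 and ABCD2 passed the read minimum in full only with 13.8, so neither is support for a lean to lower with 13.6. The TBX3 level also differed between the DsiRNAs, by 0.26 ± 0.07 (edgeR adjusted p = 0.007), with less TBX3 RNA under 13.8.

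**Figure D5:**
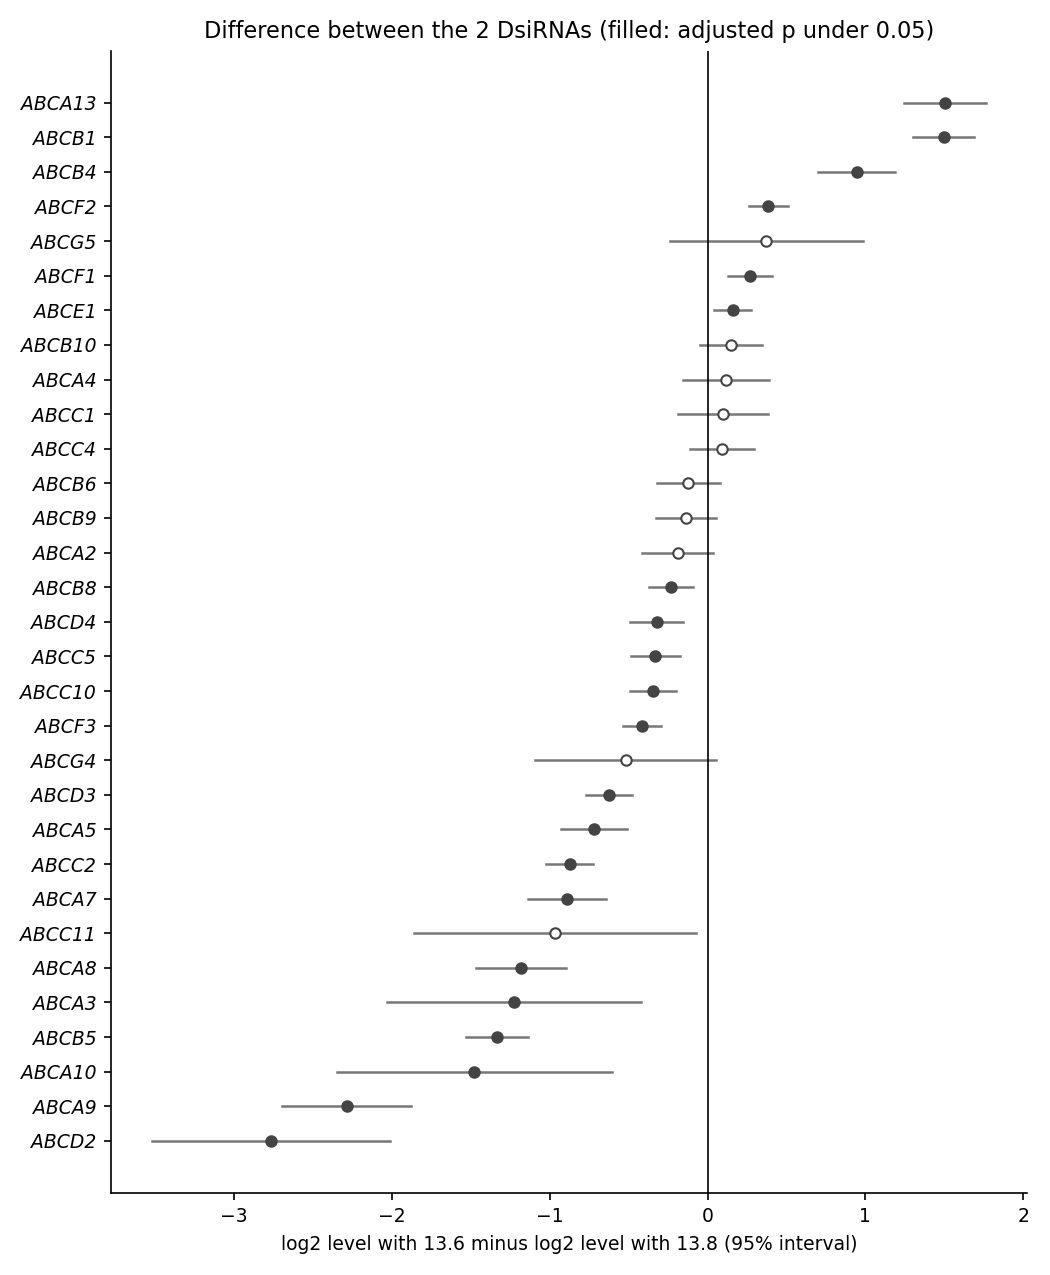
Log2 difference between 13.6 and 13.8 (x axis, positive where 13.6 is higher) with its 95% interval for 31 tested ABC genes, sorted. Filled points have an adjusted p under 0.05. The values run from −2.76 for ABCD2 to 1.502 for ABCA13.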

How the data were processed

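RNA of 501mel cultures was measured in 9 libraries, in 3 groups of 3. The authors deposited raw counts of reads per gene and, in a second table, log2 values of the counts divided by a library size factor, plus 1. The tools that the submitters' processing notes list are cutadapt, FastQC, STAR, HTSeq and DESeq2, with the build hg19. Not given in the sources used here are versions, annotation, strand setting and the handling of reads that match several genes. The labels call the replicates biological but do not say how the cultures were kept apart. The p-values set each group difference against the spread between these libraries, which may not be that of independent cultures.

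Of 25398 rows, 16 repeated rows were left out, and 28 symbols turned into dates (0.2% of reads) could not be named. The deposited log2 values gave back the raw counts and were used for that check only. Counts were tested with edgeR 4.0.16 in R 4.3.3 (TMM factors, filterByExpr with a minimum of 10 reads, robust glmQLFit, glmQLFTest, two-sided, 6 residual degrees of freedom) over 14731 genes holding 99.97% of reads. Libraries held 38105026 to 52272147 reads. The read minimum has to be met in only as many libraries as a group holds, so tested genes can have fewer reads in the others. The comparisons were each DsiRNA against control, their mean against control, and 13.6 against 13.8. CPM per kb used merged exons of GENCODE v29 (GRCh38). RefSeq (GRCh38.p14) gave promoter windows and the order of neighbouring genes, and no coordinate was moved between builds. The fit was tested on simulated counts. Alternatives were DESeq2 1.42.0, limma 3.58.1 (voom), other size factors, other filters and thresholds, only the groups compared, a replicate block and leaving out each library.

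The members and gene lists were chosen with earlier results of these data known. Described in full were ABCB5, in each of the 3 comparisons of single DsiRNAs up to 5 higher and 5 lower called members with the largest change and a mean of at least 1 CPM, and the most abundant member of each role group. From partner lists up to 3 genes with the smallest adjusted p in a comparison were named, and every gene of lists of up to 3. ABCB5-linked melanoma genes were given for the whole tested list. Other members were named with their changes, and untested members with their reads. Some genes are not reported here one by one, though counts over the family and lists include them.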

Additional observations from a re-analysis of the deposited data

Results flagged for a closer look

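In 22 ABC transporter genes the effects of the DsiRNAs differed from each other in the direct test of 13.6 against 13.8 (edgeR's quasi-likelihood test, adjusted p under 0.05), where 61.1% of all genes did. Those given here, as log2 differences positive where 13.6 was higher, were 1.502 for ABCA13, 1.49 for ABCB1, 0.94 for ABCB4, 0.38 for ABCF2, 0.27 for ABCF1 and 0.16 for ABCE1. Among lipid and peroxisomal transporters they were −2.76 for ABCD2, −2.29 for ABCA9, −1.48 for ABCA10, −1.23 for ABCA3, −1.18 for ABCA8, −0.89 for ABCA7, −0.72 for ABCA5 and −0.62 for ABCD3. Of these, ABCA10 and ABCD2 passed the read minimum in full only with 13.8, so neither is support for a lean to lower with 13.6. The pumps gave −1.33 for ABCB5, −0.87 for ABCC2, −0.34 for ABCC10 and −0.33 for ABCC5. ABCF3 gave −0.42, ABCD4 −0.32 and ABCB8 −0.23. ABCA3 lost its call without 13.8 replicate 1 (−0.90), and ABCE1 without 13.6 replicate 1 (0.14) or 3 (0.16) or 13.8 replicate 3 (0.15). Groups of 3 libraries were too small for a test of single libraries that stand apart.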

How the results depend on the processing

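Counts of called members stayed within 1.5 times under every alternative run except a fold floor. With a change of at least 1.5-fold required, 8 members were called with 13.6 (20 without the floor), 11 with 13.8 (25), 9 for the mean of both (21) and 13 between the DsiRNAs (22). Leaving out 1 library gave 14 to 20, 22 to 25, 18 to 21 and 21 to 24 called members. TBX3 ranged from −1.09 to −0.97 with 13.6 and from −1.30 to −1.24 with 13.8 across those fits. No called value changed direction under any setting. Differences that had not passed the test changed sign when 1 library was left out. With 13.6 these were ABCA10 (−0.38 to 0.36, reversed without control replicate 3 and, at 0.13, without 13.6 replicate 2), ABCD2 (−0.47 to 0.13, reversed without control replicate 3) and ABCC11 (−0.46 to 0.60, reversed without 13.6 replicate 2). With 13.8 they were ABCB9 (−0.014 to 0.10, reversed without control replicate 2), ABCF1 (−0.036 to 0.063, reversed without 13.8 replicate 1 and, at −0.022, without control replicate 3) and ABCA13 (−0.021 to 0.18, reversed without 13.8 replicate 1). The cause was not tested. Replicate numbers are shared by the groups, but same-numbered libraries deviated together at correlations of only −0.18 to 0.19, so the numbers were not taken to pair them. A fit with the replicate number as a block called 21, 27, 22 and 23 members and lost no call. Its added calls included ABCB5 (−0.163, edgeR adjusted p = 0.0488) and ABCC1 (−0.317, edgeR adjusted p = 0.00894) with 13.8, ABCC1 (−0.265, edgeR adjusted p = 0.0117) for the mean of both and ABCC11 (−1.07, edgeR adjusted p = 0.0336) between the DsiRNAs. Over all genes the block fit called 8010 with 13.6, 8803 with 13.8, 8033 for the mean and 9581 between the DsiRNAs. Without the block these counts were lower, at 7357, 8169, 7398 and 8995. A fit of only the groups compared gives nothing new for the mean of both DsiRNAs, which already uses all 9 libraries. Depth limits the 13 untested members, at 54 reads or fewer in all.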
